A study of Mus musculus with 18 samples.

Results

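The 10 genes described here mark the mesothelium, and each was found by its symbol in all 18 samples, among 45151 symbols that the samples share. They are Msln, Upk3b, Upk1b, Lrrn4, Krt8, Krt18, Krt19, Wt1, Muc16 and Bnc1. The samples came from wild type male C57BL/6J mice (strain C57BL/6 in the sample labels) of 16 weeks kept on regular chow, and comprised 6 libraries of inguinal white adipose tissue (iWAT) adipocytes, 6 of epididymal white adipose tissue (eWAT) adipocytes and 6 of brown adipose tissue (BAT). The adipocytes of iWAT and eWAT had been set free with collagenase and taken from the floating layer, whereas BAT is described as whole tissue by the methods and the source label and as BAT adipocytes by the cell type label. Taken as tissue, BAT differs from the others in both depot and preparation, which cannot be told apart. The number of reads behind each sample's values was between 22929576 and 34512470. Samples are called by the number in their title, and no label says that a number shared between depots stands for the same mouse or that the samples of a depot are separate animals, so p-values measure the spread between these samples.

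The mesothelium is a single layer of flat cells of mesodermal origin that lines the body cavities and covers the organs in them. It covers visceral fat, such as eWAT, whereas subcutaneous and interscapular fat lie outside the cavities and carry no such layer. Mesothelial cells express surface proteins that few other cells make (mesothelin, uroplakins, the mucin CA125), transcription factors of the cavity lining (Wt1, Bnc1) and the keratins of simple epithelia, which glandular and ductal epithelia also make.

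Expression is given as reads or as RPKM, reads scaled to the length of the counted row and to the depth of the sample. In iWAT and BAT a row was a gene with all its exons merged, and in eWAT it was 1 transcript, of which the one with the most reads was taken. The row was identical in both kinds of table for 3 of the 10 genes (Krt18, Muc16 and Bnc1). As only eWAT was counted by transcript, effects of the counting and of the depot cannot be told apart. Fewer cells of a type and less RNA per cell cannot be told apart in these bulk samples either. The adipocyte and brown fat markers followed the labels. The summed RPKM of 6 mature adipocyte genes ranged from 4312 to 6067 in iWAT, from 4921 to 9176 in eWAT, and from 906 to 1181 in BAT, and that of 3 brown adipocyte genes was between 1738 and 2308 in BAT and no higher than 27.8 elsewhere.

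The promoters of 3 members are shown because the results turn on their different order in the eWAT samples, Upk3b on the one side and the keratin pair Krt8 and Krt18 on the other. The sequences are those of RefSeq (build GRCm38.p6), from 250 bases before to 50 bases after the start of the gene. They lie at chr5:136038246-136038545 on the plus strand (Upk3b), chr15:102004293-102004592 on the minus strand (Krt8) and chr15:102027966-102028265 on the plus strand (Krt18). Capitals mark matches on either strand to GGGCGG (the GC box), TATAAA (the TATA box) or GGAATG (the core of the TEAD motif).
Upk3b: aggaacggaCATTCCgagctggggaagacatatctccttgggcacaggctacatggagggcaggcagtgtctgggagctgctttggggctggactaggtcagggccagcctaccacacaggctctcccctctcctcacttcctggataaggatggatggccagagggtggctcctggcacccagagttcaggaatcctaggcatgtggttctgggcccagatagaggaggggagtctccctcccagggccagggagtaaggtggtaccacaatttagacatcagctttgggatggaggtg
Krt8: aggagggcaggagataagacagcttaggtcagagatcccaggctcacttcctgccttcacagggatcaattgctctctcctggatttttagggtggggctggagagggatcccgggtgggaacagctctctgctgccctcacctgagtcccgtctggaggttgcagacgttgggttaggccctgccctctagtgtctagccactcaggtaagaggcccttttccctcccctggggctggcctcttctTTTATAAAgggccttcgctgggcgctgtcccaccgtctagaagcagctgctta
Krt18: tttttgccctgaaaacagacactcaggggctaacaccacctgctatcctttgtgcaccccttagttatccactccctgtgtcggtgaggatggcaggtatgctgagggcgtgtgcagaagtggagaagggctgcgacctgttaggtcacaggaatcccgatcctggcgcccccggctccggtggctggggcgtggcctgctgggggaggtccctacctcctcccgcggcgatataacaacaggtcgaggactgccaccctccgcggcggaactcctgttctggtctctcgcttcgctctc
The Upk3b promoter held 1 match to GGAATG, read on the minus strand, and the Krt8 promoter held 2 overlapping matches to TATAAA, 1 on each strand. The Krt18 promoter held none of the 3 motifs. Of all 32851 promoters of this length, 14.7% held GGAATG, 13.6% TATAAA and 35.7% GGGCGG. The GC content was 58.7% (Upk3b), 58.0% (Krt8) and 61.3% (Krt18), against a median of 52.7% over all promoters. The sequences of Lrrn4, Muc16 and Bnc1 are not shown.

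With the exception of Lrrn4, the mesothelial genes were read in eWAT adipocytes and were close to absent from iWAT and BAT. The 9 genes other than Lrrn4 had 3453 reads in the 6 eWAT samples, 11 in the 6 iWAT samples and 20 in the 6 BAT samples. The lowest eWAT sample lay above every iWAT and every BAT sample for 8 of the 10 genes, the exceptions being Lrrn4 and Muc16. Of 36313 symbols with a read, 13.6% showed such a gap to both depots, 16.1% showed it to iWAT and 27.1% to BAT. Even in eWAT the levels were low, with mean RPKM between 0.113 (Muc16) and 3.41 (Upk3b) for these 9 genes.

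**Figure D1:**
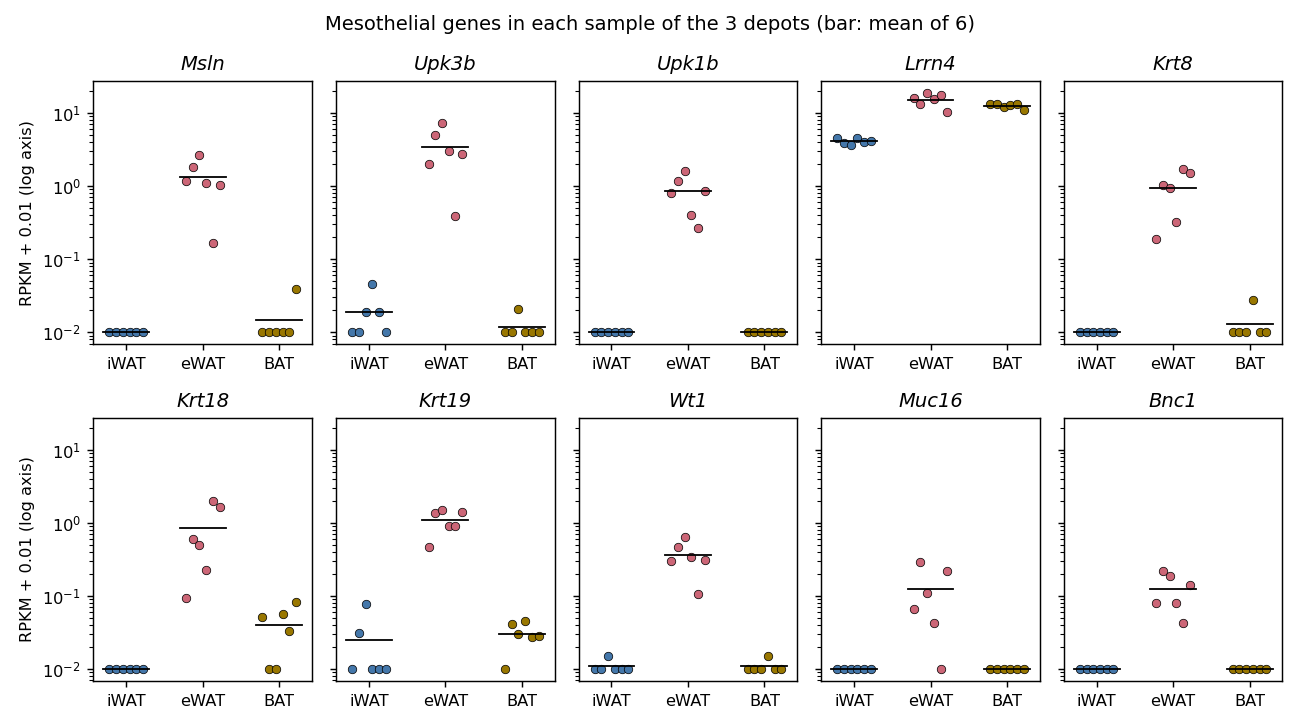
RPKM of the 10 mesothelial genes in each of the 18 samples (points) with the mean of the 6 samples of a depot (bar), on a log axis after adding 0.01. Points at the bottom are samples with no read. In 8 panels all eWAT points lie above all others, and in that of Lrrn4 the 3 depots all lie above 3.6.

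Msln encodes mesothelin, a glycoprotein held on the cell surface by a lipid anchor (gene identifier 56047, mm9 chr17:25885558-25891323, minus strand). It had 86, 132, 169, 71, 9 and 73 reads in eWAT samples 7, 8, 11, 13, 14 and 15, no read in any iWAT sample, and 2 reads in BAT, both in sample 13. Sample 14 stood far below the other eWAT samples and sample 11 above them, at RPKM of 0.156 and 2.69, yet all 6 lay above every sample of the other depots. The mean RPKM in eWAT was 1.32 ± 0.852 (SD, n = 6). Ratios between depots were taken on pooled reads, those of the 6 samples of a depot over row length and summed depth. On pooled reads Msln was at least 165-fold higher in eWAT than in iWAT, taking 3 reads over the 6 iWAT samples as the floor. Against BAT the pooled ratio was 285 (95% counting interval 78.5 to 2360). Such intervals and floors cover counting error only. With 9 reads in sample 14, Msln missed by 1 read the minimum of 10 reads in 6 samples that the fit over all symbols required. An exact two-sided permutation test of log2(RPKM + 0.1) gave p = 0.00216 against iWAT and against BAT, the smallest value that 6 against 6 samples can give. A minimum of 10 reads in 5 samples was chosen after seeing the data, and Msln passed it only through eWAT. The adjusted p by edgeR was then 2.34e-06 against iWAT and 1.57e-06 against BAT. As Msln had to differ under this minimum, these values are a description.

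Upk3b and Upk1b encode uroplakins, membrane proteins first known from the apical plaques of the urothelium. Upk3b (gene identifier 100647, mm9 chr5:136514366-136522357, plus strand) had the most reads of the 9 genes, with 159, 405, 493, 213, 24 and 211 reads in eWAT samples 7, 8, 11, 13, 14 and 15. It had 5 reads in all of iWAT, spread over 3 samples, and 1 read in all of BAT. As for Msln, sample 14 was lowest and sample 11 highest in eWAT, an 18.9-fold range, without any overlap with the other depots. Its mean RPKM in eWAT was 3.41 ± 2.42 (SD, n = 6). The ratio on pooled reads was 395 (95% counting interval 169 to 1220) against iWAT and 2270 (406 to 89600) against BAT. In edgeR's quasi-likelihood test over all symbols, the log2 fold change was 8.34 (SE 0.734, adjusted p = 1.44e-08) against iWAT and 10.04 (SE 0.848, adjusted p = 2.80e-09) against BAT. These sizes depended on single samples with a few reads, and were 9.24 without iWAT sample 13 and 11.22 without BAT sample 8. As Upk3b reached the minimum of reads for this test only through eWAT, it had to differ, and its adjusted p-values are a description. Upk1b, a tetraspanin of the same plaques (gene identifier 22268, mm9 chr16:38773297-38800316, minus strand), had 47, 70, 82, 21, 12 and 49 reads in the same eWAT samples and no read in iWAT or BAT. Sample 14 was again the lowest and sample 11 the highest. The mean in eWAT was 0.840 ± 0.495 RPKM (SD, n = 6). On pooled reads Upk1b was at least 82.0-fold higher in eWAT than in iWAT and at least 94.3-fold higher than in BAT. The adjusted p was 5.80e-05 against iWAT and 2.66e-05 against BAT in edgeR. These p-values are a description too, as Upk1b reached the minimum of reads only through eWAT.

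Wt1 and Bnc1 encode zinc finger transcription factors, the Wilms tumour protein of the cavity lining, kidney and gonads, and basonuclin. Wt1 (gene identifier 22431, mm9 chr2:104966686-105038160, plus strand) had 30, 48, 56, 31, 8 and 30 reads in eWAT samples 7, 8, 11, 13, 14 and 15, and a single read each in iWAT and BAT. The order of the eWAT samples at both ends was that of Msln, with sample 14 lowest and sample 11 highest. The mean RPKM in eWAT was 0.349 ± 0.178 (SD, n = 6). The ratio on pooled reads was 365 against iWAT (95% counting interval 64.8 to 14500) and 420 against BAT (74.5 to 16700). Bnc1 (gene identifier 12173, mm9 chr7:89111548-89137185, minus strand) had 11, 33, 24, 10, 4 and 20 reads in eWAT and no read in iWAT or BAT. Here sample 14 was lowest too, while sample 8 was highest. The mean in eWAT was 0.115 ± 0.0688 RPKM (SD, n = 6). On pooled reads Bnc1 was at least 29.6-fold higher in eWAT than in iWAT and at least 34.0-fold higher than in BAT. Both genes lay below the minimum of reads for the fit. The exact permutation test gave p = 0.00216 for both genes against both depots. Genes that overlap either of them had at most 3 reads in any iWAT or BAT sample.

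Muc16 encodes the large mucin known as CA125, a binding partner of mesothelin (gene identifier 73732, mm9 chr9:18299899-18317332, minus strand). It was counted on a row of 1038 bp, and had 2, 10, 3, 1, 0 and 7 reads in eWAT samples 7, 8, 11, 13, 14 and 15 and none in iWAT or BAT. Sample 14, with no read, overlapped the other depots. The mean in eWAT was 0.113 ± 0.110 RPKM (SD, n = 6). On pooled reads Muc16 was at least 6.68-fold higher in eWAT than in iWAT and at least 7.68-fold higher than in BAT. The exact permutation test gave p = 0.0152 in both cases.

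The keratins of simple epithelia were also read in eWAT, in another order of samples. Krt8 and Krt18 encode the type II and the type I keratin that pair into filaments in such epithelia, and lie close to each other on chromosome 15. Krt8 (gene identifier 16691, mm9 chr15:101827129-101834773, minus strand) had 11, 64, 49, 17, 82 and 89 reads in eWAT samples 7, 8, 11, 13, 14 and 15, none in iWAT and 1 in BAT (sample 11). In RPKM, sample 14 was the highest and sample 7 the lowest, and no eWAT sample overlapped the other depots. The mean in eWAT was 0.947 ± 0.615 RPKM (SD, n = 6). On pooled reads Krt8 was at least 91.3-fold higher in eWAT than in iWAT, and the ratio to BAT was 315 (95% counting interval 56.1 to 12500). Adjusted p-values were 4.14e-06 against iWAT and 2.39e-06 against BAT in edgeR. Krt8 reached the minimum of reads only through eWAT and had to differ, so these p-values are a description. Krt18 (gene identifier 16668, mm9 chr15:101858647-101862457, plus strand) had 4, 28, 20, 9, 73 and 75 reads in the same eWAT samples, none in iWAT and 8 in BAT, spread over 4 samples. Again sample 14 was highest and sample 7 lowest, a 23.2-fold range, the widest of the 10 genes among those with reads in all 6 eWAT samples. The eWAT mean was 0.829 ± 0.779 RPKM (SD, n = 6). On pooled reads Krt18 was at least 60.7-fold higher in eWAT than in iWAT, and the ratio to BAT was 26.2 (13 to 61.4). The exact permutation test gave p = 0.00216 for both.

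Krt19, a type I keratin of ducts and mesothelium (gene identifier 16669, mm9 chr11:100002124-100009979, minus strand), varied least among the keratins. It had 21, 64, 60, 37, 33 and 63 reads in eWAT samples 7, 8, 11, 13, 14 and 15, 5 reads in iWAT (in 2 samples) and 7 in BAT (in 5 samples). Sample 14 was neither the lowest nor the highest, and the eWAT samples again lay above all others. The mean in eWAT was 1.09 ± 0.407 RPKM (SD, n = 6). The ratio on pooled reads was 65.4 against iWAT (95% counting interval 27.7 to 203) and 53.6 against BAT (25.7 to 135). The log2 fold changes were 5.82 (SE 0.567, adjusted p = 5.75e-08) and 5.39 (SE 0.541, adjusted p = 3.35e-08) in edgeR. Of the 5 reads in iWAT, 4 were in sample 12, without which the former was 7.28. Krt19 also reached the minimum of reads only through eWAT, so its adjusted p-values are a description.

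Lrrn4, a leucine-rich repeat membrane protein known as a mesothelial marker, stood apart from the other 9 genes because it was read in all 18 samples (gene identifier 320974, mm9 chr2:132691384-132706627, minus strand). The RPKM ranged from 3.63 to 4.59 in iWAT (median 4.09), from 10.2 to 18.8 in eWAT (median 15.9) and from 11 to 13.4 in BAT (median 13.1). iWAT lay below both other depots, and eWAT and BAT overlapped. The log2 fold change was 1.83 (SE 0.126, adjusted p = 5.36e-10) between eWAT and iWAT, 0.05 (SE 0.122, adjusted p = 0.717) between eWAT and BAT, and -1.78 (SE 0.125, adjusted p = 4.85e-10) between iWAT and BAT in edgeR. These values hold for reads at a place where Lrrn4 overlaps another gene. The last exon of the merged Lrrn4 row (mm9 chr2:132691384-132696639, 5256 bp) covers the last exon of Crls1, which encodes cardiolipin synthase of mitochondria and lies on the opposite strand. The library kit keeps no strand. In the 12 iWAT and BAT samples this exon held 97.7% to 99.7% of the signal of the merged Lrrn4 row, and in 11 of them another Lrrn4 exon had none. The most-read row of Lrrn4 in eWAT is a single exon of 1218 bp, of which 949 bp lie within the last exon of Crls1. Therefore Lrrn4 reads in these rows cannot be told apart from those of Crls1.

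The RefSeq transcript of Lrrn4 (3475 bp) ends 1730 bp away from the end of Crls1, and only the eWAT tables list it as a row of its own. It had 112, 172, 201, 84, 26 and 73 reads in eWAT samples 7, 8, 11, 13, 14 and 15, a mean of 1.02 ± 0.614 RPKM (SD, n = 6) against 15.3 ± 3.14 RPKM (SD, n = 6) for the most-read row. On this row sample 14 was the lowest and sample 11 the highest, the same ends as for Msln. As this row leaves out the stretch shared with Crls1 and the merged rows of iWAT and BAT have nearly all of their signal there, it allows no comparison of Lrrn4 between depots. The difference on the most-read row turned its sign when row length was left out of the model (-0.55 against iWAT and -2.34 against BAT).

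**Figure D2:**
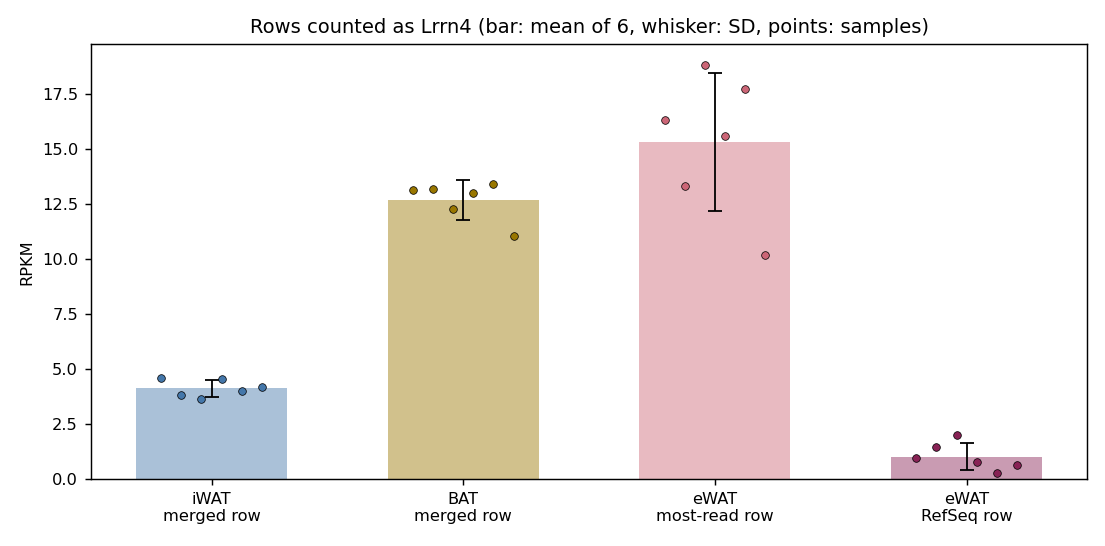
RPKM of the rows counted as Lrrn4 in iWAT, BAT and eWAT. Bars are means of 6 samples, whiskers their SD and points the samples. The most-read row in eWAT, which lies largely on Crls1, has a mean of 15.3 and the RefSeq row one of 1.02.

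In the fit over all symbols, 5 members had enough reads to be tested (Upk3b, Upk1b, Krt8, Krt19 and Lrrn4), and the other 5 had not. Apart from Lrrn4, these genes had at most 4 reads in any iWAT or BAT sample and reached the minimum only through eWAT. They therefore had to differ, and their count and p-values are a description. All 5 were higher in eWAT than in iWAT at an adjusted p under 0.05, where 50.8% of the 18383 symbols were called, 44.4% higher in eWAT and 6.33% higher in iWAT. Without row length in the model it was 4 higher and Lrrn4 lower. Against BAT, 4 of the 5 were higher in eWAT, with 77.8% of symbols called and 56.5% called higher in eWAT. Between iWAT and BAT, only Lrrn4 was called among the 5, lower in iWAT, where 65.2% of symbols were called and 28.1% were called higher in BAT. Over all symbols the median log2 fold change was 0.35 between eWAT and iWAT and 0.59 between eWAT and BAT. Both the share of symbols called and its direction depended on how rows of unequal length were set against each other. Of the symbols called between eWAT and iWAT, 87.5% were higher in eWAT, against 41.1% without row length in the model and 49.4% over identical rows alone. Between eWAT and BAT these shares were 72.6%, 56.4% and 51.9%.

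A further 16 genes known from mesothelial cells were examined as a list, and most of those tested were also higher in eWAT. Of 12 with enough reads, 10 were higher and 2 lower in eWAT than in iWAT (median log2 fold change 2.24), and 10 were higher and 0 lower in eWAT than in BAT (median 2.19) at an adjusted p under 0.05 in edgeR, beside the 44.4% and 56.5% of all symbols called higher in eWAT. Part of this list entered the fit mainly through eWAT, so its count is a description. Pkhd1l1 had 4 reads in iWAT, 15 in BAT and 550 in eWAT, and Krt7 had no read in iWAT and 98 in eWAT. Some genes of other cell types were higher in eWAT too. Of 6 macrophage genes, 5 were higher than in iWAT (median log2 fold change 2.98) and 6 higher than in BAT (median 4.38). Of 5 endothelial genes, 4 were higher than in iWAT (median 1.12) and 2 higher than in BAT (median 0.53). Of the 5 stromal progenitor genes tested, 3 were higher and 1 lower than in iWAT, and 2 were higher and 2 lower than in BAT. Against BAT, the endothelial and stromal shares called higher lay below the 56.5% of all symbols. Gpm6a, a membrane glycoprotein of neurons and mesothelium, had a mean of 1.20 ± 0.884 RPKM (SD, n = 6) in eWAT, with sample 14 lowest at 0.192 and sample 11 highest at 2.66, against 0.0540 ± 0.0188 in iWAT and 0.181 ± 0.0756 in BAT. Its log2 fold change was 4.37 (SE 0.509, adjusted p = 6.21e-07) against iWAT in edgeR. Ezr, the linker of membrane and actin in microvilli, was higher by 1.88 (SE 0.401, adjusted p = 0.000584) on the log2 scale, with 13.7 RPKM in sample 15, the sample with the most macrophage reads, and 2.02 to 4.05 in the other eWAT samples. Slc9a3r1, a scaffold bound by ezrin, was higher by 0.57 (SE 0.211, adjusted p = 0.0302), and Igfbp6, which binds insulin-like growth factors, by 1.32 (SE 0.391, adjusted p = 0.00827). The 2 genes that were lower in eWAT than in iWAT were Cldn15, a claudin (log2 fold change -0.77, SE 0.210, adjusted p = 0.00471), and Anxa8, an annexin (-1.03, SE 0.284, adjusted p = 0.00496), Anxa8 being named after its values were seen. Both had reads throughout iWAT, with mean RPKM of 16.2 ± 2.72 and 4.75 ± 0.570 (SD, n = 6). Calb2, which encodes calretinin, had no read in any of the 18 samples. The list did not share 1 order of the eWAT samples. Igfbp6 had the same ends as Gpm6a, and Pkhd1l1 was lowest in sample 14 and highest in sample 8. Krt7, Cldn15, Anxa8, Ezr and Slc9a3r1 were lowest in sample 7. The summed RPKM of the 16 genes was highest in sample 15 (57.95), with 38.9 in sample 11 and 20.78 in sample 14, the lowest.

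Among the 6 eWAT samples the members fell into sets with different ends. Sample 14 had the lowest RPKM for 6 members (Msln, Upk3b, Upk1b, Wt1, Muc16 and Bnc1), and sample 11 the highest for 6 (Msln, Upk3b, Upk1b, Wt1, Krt19 and the most-read row of Lrrn4). Over the 18383 symbols tested, sample 14 was the lowest of the 6 for 11.9% and sample 11 the highest for 14.4%. The ratio of Msln to Upk3b in RPKM was between 0.353 and 0.586 over all 6 samples, while Upk3b itself ranged 18.9-fold. Apart from Muc16, which had no read in sample 14, the other genes lowest in that sample varied more against Upk3b, and their ratios were highest there. The ratio was 0.663 there for Upk1b (0.131 to 0.392 elsewhere), 0.253 for Wt1 (0.0862 to 0.143), 0.0839 for Bnc1 (0.0236 to 0.0477) and 0.731 for the RefSeq row of Lrrn4 (0.234 to 0.476). In sample 14 these rest on 12 (Upk1b), 8 (Wt1), 4 (Bnc1) and 26 reads (RefSeq row of Lrrn4) over 24 of Upk3b. Their counting error is therefore large and was not measured. For Krt8 over Upk3b the ratio was between 0.0899 and 0.205 in samples 7, 8, 11 and 13, but 0.548 in sample 15 and 4.44 in sample 14. Krt18 over Upk3b was between 0.0422 and 0.116 in the former 4 samples, 0.596 in sample 15 and 5.10 in sample 14. Krt19 over Upk3b was 2.35 in sample 14 and between 0.208 and 0.509 elsewhere. The balance of the keratin pair differed as well, with Krt18 over Krt8 between 0.469 and 0.683 in samples 7, 8, 11 and 13, and at 1.15 and 1.09 in samples 14 and 15. Reads of Krt18 and Krt8 were few in sample 7 (4 and 11) and sample 13 (9 and 17).

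**Figure D3:**
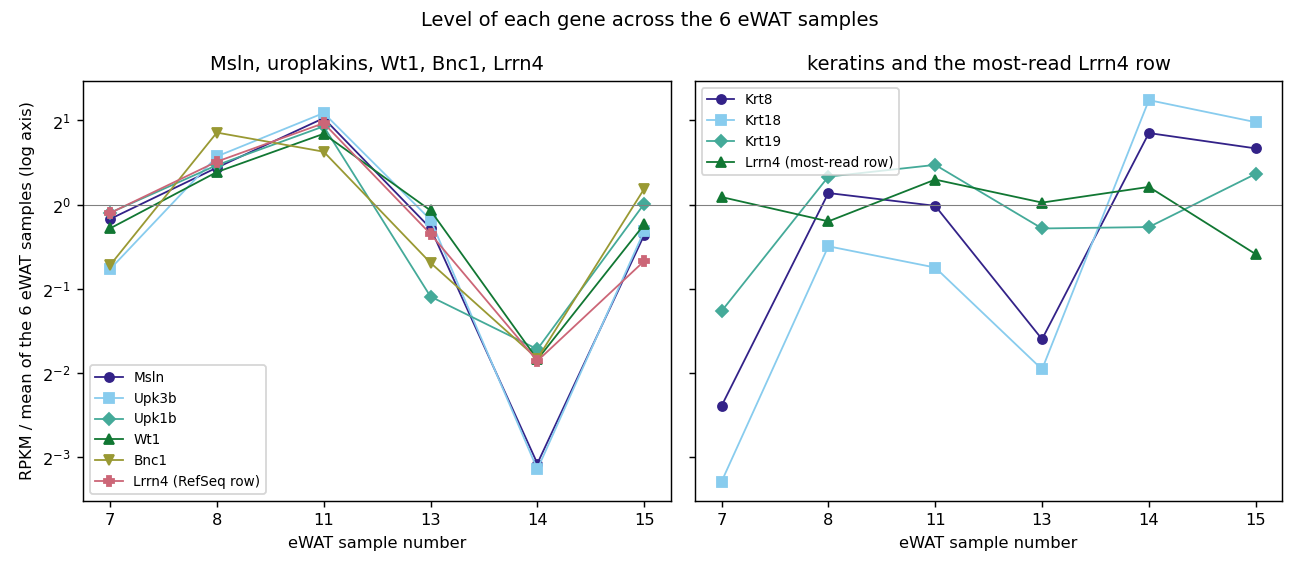
RPKM of each gene in the 6 eWAT samples, divided by its mean over them, on a log axis. Lines join the points of 1 gene, and the samples have no order. In the left panel all 6 genes are lowest in sample 14, and in the right panel Krt8 and Krt18 are highest there. Muc16, with at most 10 reads, is left out.

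The likeness of each member to Msln over the 6 eWAT samples was measured on log2(RPKM + 0.1), with exact two-sided permutation tests adjusted over the 18 coefficients computed. Wt1 had r = 0.985 (adjusted p = 0.0417), Upk3b r = 0.982 (adjusted p = 0.0417) and Upk1b r = 0.889 (adjusted p = 0.0417) by permutation. Spearman's rho was 0.829 for each of these 3 genes, with a permutation p of 0.0583 before and 0.15 after adjustment. Without samples 11 and 14, which were farthest from the median of Msln, r was 0.918 (Wt1), 0.799 (Upk3b) and 0.656 (Upk1b) over 4 samples. When single samples were left out, r stayed between 0.977 and 0.996 (Wt1), 0.92 and 0.999 (Upk3b) and 0.828 and 0.995 (Upk1b), although 5 samples leave little room to pass an adjusted threshold and 0 of the 9 genes did. Bnc1 had r = 0.832 and rho = 0.714 (permutation p = 0.0236 and 0.136, adjusted 0.106 and 0.306). Muc16 had r = 0.635, Krt19 r = 0.329 and the most-read row of Lrrn4 r = -0.10, with adjusted permutation p-values of 0.342, 0.609 and 0.84. For Krt8 and Krt18 r was -0.31 and -0.51, with rho = -0.54 for both and adjusted permutation p-values between 0.442 and 0.644. The negative sign came with sample 14, without which r was 0.34 (Krt8) and 0.07 (Krt18). The RefSeq row of Lrrn4, added after its values were seen and outside the adjustment, had r = 0.964 (permutation p = 0.00139) and rho = 1.0 (permutation p = 0.00278).

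The samples in which Krt8 and Krt18 were high were also those with reads of other epithelial genes. Epcam, an adhesion protein of epithelia that mesothelial cells lack, had 0, 13, 9, 6, 66 and 63 reads in eWAT samples 7, 8, 11, 13, 14 and 15, no read in iWAT and 1 in BAT. The summed RPKM of 8 epithelial genes (Epcam, Cdh1, Cldn3, Cldn4, Cldn7, Krt5, Krt14 and Krt15) was 8.68 in sample 14 and 5.20 in sample 15, and between 0.0923 and 0.929 in the other 4 eWAT samples. It was at most 0.139 in iWAT, where 5 of the 8 genes had no read, and at most 0.288 in BAT, where 4 had none. The summed RPKM of 7 genes of the epididymis, the duct that eWAT is attached to, was 94.3 in sample 14, 89.7 in sample 15 and 4.23 in sample 13. In samples 7, 8 and 11 it was between 0.0423 and 0.145. In iWAT and BAT it was at most 0.157, with 6 and 5 of the 7 genes at 0. Samples 14 and 15, alike in these lists, differed in Msln (0.156 and 1.03 RPKM) and Upk3b (0.385 and 2.74 RPKM). Sample 15 also had the highest summed RPKM of 6 macrophage genes, 2013 against 143 to 483 in the other eWAT samples. Whether the reads of Krt8 and Krt18 came with those of the epithelial and epididymal genes was not tested. Without samples 14 and 15, with the same symbols tested, 5 members were called higher in eWAT against iWAT and 4 against BAT, as with them. Apart from Lrrn4 these genes had entered the fit only through eWAT, so this count is a description too. Within samples 7, 8, 11 and 13 alone, Krt8 had 11 to 64 reads, Krt18 4 to 28 and Epcam 0 to 13. In iWAT and BAT there were 0 to 1 reads (Krt8) and 0 to 3 reads (Krt18) per sample.

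**Figure D4:**
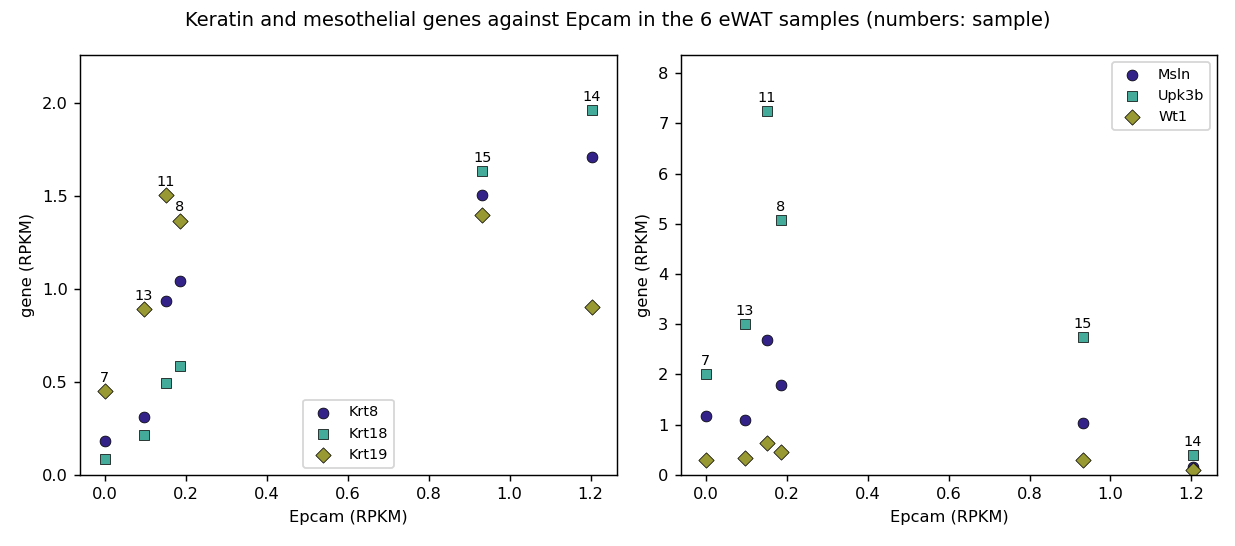
RPKM of Krt8, Krt18 and Krt19 (left) and of Msln, Upk3b and Wt1 (right) against that of Epcam in the 6 eWAT samples, each column of points labelled with its sample number. Samples 14 and 15 lie to the right, at Epcam levels of 1.20 and 0.932, where Krt8 and Krt18 are highest and, in sample 14, Msln, Upk3b and Wt1 are lowest.

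The genes most like Msln were sought among 13098 symbols with a mean of at least 1 RPKM in eWAT, as a description without a test. Over all 18 samples, which share the gap between depots, Pearson's r was highest for Upk3b (0.995), followed by Slpi (0.976), Fmod (0.967), Nsmaf (0.960) and 6430706D22Rik (0.949). Slpi, a secreted inhibitor of leukocyte proteases, had a mean of 5.18 ± 2.67 RPKM (SD, n = 6) in eWAT, 0.0820 in iWAT and 0.0221 in BAT. Fmod, the collagen-binding proteoglycan fibromodulin, had means of 2.36 ± 1.19 RPKM in eWAT, 0.270 in iWAT and 0.311 in BAT. Over the 6 eWAT samples alone, r was highest for Slpi (0.991), Upk3b (0.982), Slc50a1 (0.977), Igfbp6 (0.974) and Lyve1 (0.971). Slpi and Upk3b stood in both orders. Slc50a1, a sugar transporter, had mean RPKM of 10.9 in eWAT, 9.71 in iWAT and 6.38 in BAT, and Lyve1, a hyaluronan receptor of lymphatic endothelium and some macrophages, had 2.08, 1.55 and 0.630.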

How the data were processed

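Total RNA of 18 samples was sequenced from libraries made with the NEBNext Ultra RNA kit. The authors mapped reads to mm9 and counted them with the Genomatix Genome Analyzer, whose version is not given in the sources used here, and the submitters' processing notes also name cutadapt (version 1.16) and HISAT2 (version 2.1.0). For every row the authors deposited the raw read count and its RPKM. The RPKM equalled counts over row length and over a fixed total for that sample (22929576 to 34512470 reads). The iWAT and BAT tables (53445 merged gene rows) also hold a normalized signal per exon, deposited by the authors and used for Lrrn4 only. The eWAT tables hold 189660 transcript rows, and a read can count on several of them.

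The depot named in the labels gave the groups. For each symbol 1 row per sample was used, in eWAT that with the most reads over its 6 samples. Depots were compared with edgeR (version 4.0.16, glmQLFit and glmQLFTest) in R (version 4.3.3) over the 18383 symbols that reached 10 reads in 6 or more samples. Row length, the total of reads and TMM factors from identical rows entered the offset. Symbols were called at an adjusted p (Benjamini-Hochberg) under 0.05, and standard errors were derived from the F statistic. On simulated counts for 18108 symbols, the code called 159 of 191 changed and 5 unchanged symbols between eWAT and iWAT. In these counts row length acted exactly as in the model, so they do not show the error from unlike rows. Members with fewer reads were compared by exact permutation tests on log2(RPKM + 0.1) with scipy 1.17.1 and numpy 2.4.6 under Python 3.11.15. Ratios between depots were taken on reads pooled over the 6 samples of a depot and carry exact counting intervals of 95%. The floor was 3 reads over the 6 samples of a depot.

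All 10 members were named, as were the first gene and up to 4 of the most expressed genes of other lists, and the 5 symbols most like Msln. Pkhd1l1, Krt7, Calb2 and Anxa8 were named outside this rule, and the epithelial genes were listed in full. The members and lists were chosen with earlier results of these data known. Alternatives were other scalings, filters, rows and pseudocounts, DESeq2 (version 1.42.0), limma (version 3.58.1), a replicate block and leaving out samples.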

Additional observations from a re-analysis of the deposited data

How the results depend on the processing

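The same members were not tested over identical rows alone, because none of the 5 tested members has one there, and the symbols called were then 3548 (iWAT and BAT), 727 (eWAT and iWAT) and 3828 (eWAT and BAT) of 5637, against 11980, 9333 and 14302 of 18383. Without row length in the offset, 4742 symbols were called between eWAT and iWAT, and Lrrn4 turned to -0.55 against iWAT and -2.34 against BAT. On its RefSeq row in eWAT, which covers another region than the merged rows, it came to -2.08 and -3.86. Without TMM, Lrrn4 passed the threshold against BAT (0.27, adjusted p = 0.0389). With no filter on reads, 10 members were called between eWAT and iWAT and 9 between eWAT and BAT, and with at least 10 reads in 5 samples 8 and 7, since more members were tested. Leaving out any 1 sample, with the same symbols tested, left 5, 4 and 1 members called between eWAT and iWAT, eWAT and BAT, and iWAT and BAT. DESeq2, limma and the other scalings changed no other call of a member.

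The number of members like Msln within eWAT at an adjusted p under 0.05 was 3, and 0 with a pseudocount of 1 or with the transcript of highest RPKM, and from 0 to 0 when a sample was left out. The coefficients moved little, with r of 0.977 (Upk3b), 0.914 (Upk1b) and 0.988 (Wt1) at a pseudocount of 1, and 0.978, 0.886 and 0.93 at an adjusted p of 0.05 with the transcript of highest RPKM.

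With the sample number as a replicate block, 10610, 8453 and 13130 symbols were called (iWAT and BAT, eWAT and iWAT, eWAT and BAT), and it changed no call of a member. Deviations of samples with the same number correlated between -0.33 and 0.15, which cannot show whether they come from the same mouse. The numbers were not taken as pairs because no label says that they stand for the same animal.

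Depth limits Muc16, Bnc1, Wt1 and Krt18 most, with fewer than 10 reads in at least 1 eWAT sample, and Msln with 9 in sample 14.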
